A study of Mus musculus with 17 samples.

Results

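The genes described here carry glucose through glycolysis and its 2 side routes, the pentose phosphate and the hexosamine pathways. They are 36 genes chosen by symbol, and all 36 were among the 25198 rows of a table of RNA-seq read counts. A total of 34 had enough counts to be tested, of 9603 genes tested in all. The 36 comprise 2 glucose carriers, 9 genes of upper glycolysis, 3 genes for fructose-2,6-bisphosphate enzymes, 6 genes of lower glycolysis, 4 lactate genes, 4 genes that govern pyruvate entry into mitochondria, 4 pentose phosphate genes and 4 hexosamine genes.

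The libraries came from ovarian follicles of CD1 mice aged 16 days, grown to the antral stage for 8 days in eIVFG (encapsulated in vitro follicle growth, a culture in which single follicles grow inside a gel). Each library was made from 3 follicles, so the RNA pools granulosa cells, theca cells and the oocyte. The 6 Tyrphostin libraries came from follicles exposed for 4 h to 10 µM Tyrphostin-AG1478, an inhibitor of the kinase of the epidermal growth factor receptor (EGFR), in DMSO with hCG, the gonadotropin that starts ovulation in culture. The 11 Control libraries bear only the word Control. The treatment text is the same for all 17 samples, so the labels do not state whether Control follicles received hCG or DMSO. Batch 1 held 6 Control and 3 Tyrphostin libraries and batch 2 held 5 Control and 3 Tyrphostin libraries, and the labels do not say what a batch was. Names of the Control libraries fall into 5 numbered sets, and the labels leave unsaid whether a set shares its animals or cultures. Nothing says that libraries of a group came from separate animals or cultures, so p-values measure the spread between these libraries, which may be technical.

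Glucose enters cells through carriers of the SLC2A family and is phosphorylated by hexokinases. Most of it then runs through glycolysis to pyruvate and lactate, while a part branches into the pentose phosphate pathway, which supplies NADPH and ribose, or into the hexosamine pathway, which ends in UDP-N-acetylglucosamine. In the ovarian follicle the granulosa cells take up glucose and pass pyruvate and lactate to the oocyte, and in the ovulating cumulus UDP-N-acetylglucosamine is a building block of the hyaluronan matrix.

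Library totals ran from 1820545 to 8291024 counts, and 12538 to 16383 genes had at least 1 count. Dusp6, a feedback phosphatase of the ERK pathway used here as a check of the inhibitor, had 382 to 814 CPM (counts per 1e6 library counts, TMM-scaled) in Control and 72.8 to 191 CPM under Tyrphostin. It changed by -2.05 ± 0.22 on the log2 scale (SE; adjusted p = 1.88e-06, edgeR). Granulosa markers, all 9 of 9 in the table, summed to 85657 to 107523 CPM in Control and 78269 to 114813 CPM in Tyrphostin libraries. Of the 7 granulosa markers tested, 3 passed as higher under Tyrphostin and none as lower: Cyp19a1, the aromatase (2.35 ± 0.22, log2 fold change ± SE), Nr5a2, a nuclear receptor (2.18 ± 0.16), each with all 6 Tyrphostin libraries above all Controls, and Fshr, the FSH receptor (0.83 ± 0.25). The 9 oocyte markers summed to 20.5 to 91.3 and 21.1 to 225 CPM, and the 9 theca and stroma markers to 267 to 2163 and 273 to 3090 CPM. The 4 endothelial markers (8.33 to 87.9 and 8.77 to 31.9 CPM) and the 4 immune markers (11.6 to 26.1 and 11.5 to 35.8 CPM) were low, and 3 of 4 erythrocyte markers (Hba-a2, Hbb-bs, Hbb-bt) had no count in any library. The groups overlapped in each of these sums, and the part of these cell types in the results below was not tested. In RNA pooled from several cell types, fewer cells of a type and less RNA per cell cannot be told apart.

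The share of all counts that fell on the 36 genes ran from 1.01% to 4.99% (median 2.30%) over the Control libraries and from 1.19% to 3.01% (median 2.08%) over the Tyrphostin libraries. A few libraries stood apart for many of these genes at once. Control 7 was the highest Control library for 23 of the 34 tested genes (67.6%, against 21.4% of all genes tested), and its median distance from the Control median was 1.13 on the log2 scale. Control 9 was the lowest Control library for 21 of the 34 (61.8%, against 11.9% of all genes), at a median of -1.08.

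Among the Tyrphostin libraries, Tyrphostin 3 was lowest for 21 of the 34 genes (61.8%, against 18.6% of all genes), with a median distance of -0.71 from its group median. Tyrphostin 6 lay at -0.74 and Tyrphostin 2 at -0.15, whereas Tyrphostin 1, 4 and 5 lay at 0.59, 0.12 and 0.40. The same few libraries were thus high or low for most of the genes. Within group and batch the residual SD of log2 CPM had a median of 0.64 over the 34 genes, against 0.47 over all genes tested, and 11 of the 34 exceeded the 90th percentile of all genes (0.82).

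Many targets of hypoxia-inducible factors (HIF) with no role in glycolysis, such as Bnip3 and Ero1l, followed the same libraries, though not all did. Vegfa was highest in Control 3 among Control libraries and lowest in Tyrphostin 6 among Tyrphostin libraries. Of 18 such genes tested, 11 were highest in Control 7 and 13 lowest in Control 9 among Control libraries, and 12 were lowest in Tyrphostin 3 and 11 highest in Tyrphostin 5 among Tyrphostin libraries. None of the 18 passed the test between Tyrphostin and Control (edgeR; 1 at an unadjusted p under 0.05), and their median log2 fold change was -0.22. Control 7 also had the highest sums of oocyte (91.3 CPM) and of theca and stroma markers (2163 CPM) among Control libraries, while Control 9 (26.1 and 444 CPM) lay within the range of the other Control libraries for both. Control 7 had 4208470 counts and Control 9 had 2483183, above only Control 6 in total, and 12538 detected genes, the fewest. Among Tyrphostin libraries the theca and stroma sum was highest in Tyrphostin 5 (3090 CPM) and lowest in Tyrphostin 3 (273 CPM). The part of depth and of these markers in the pattern was not tested.

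**Figure D1:**
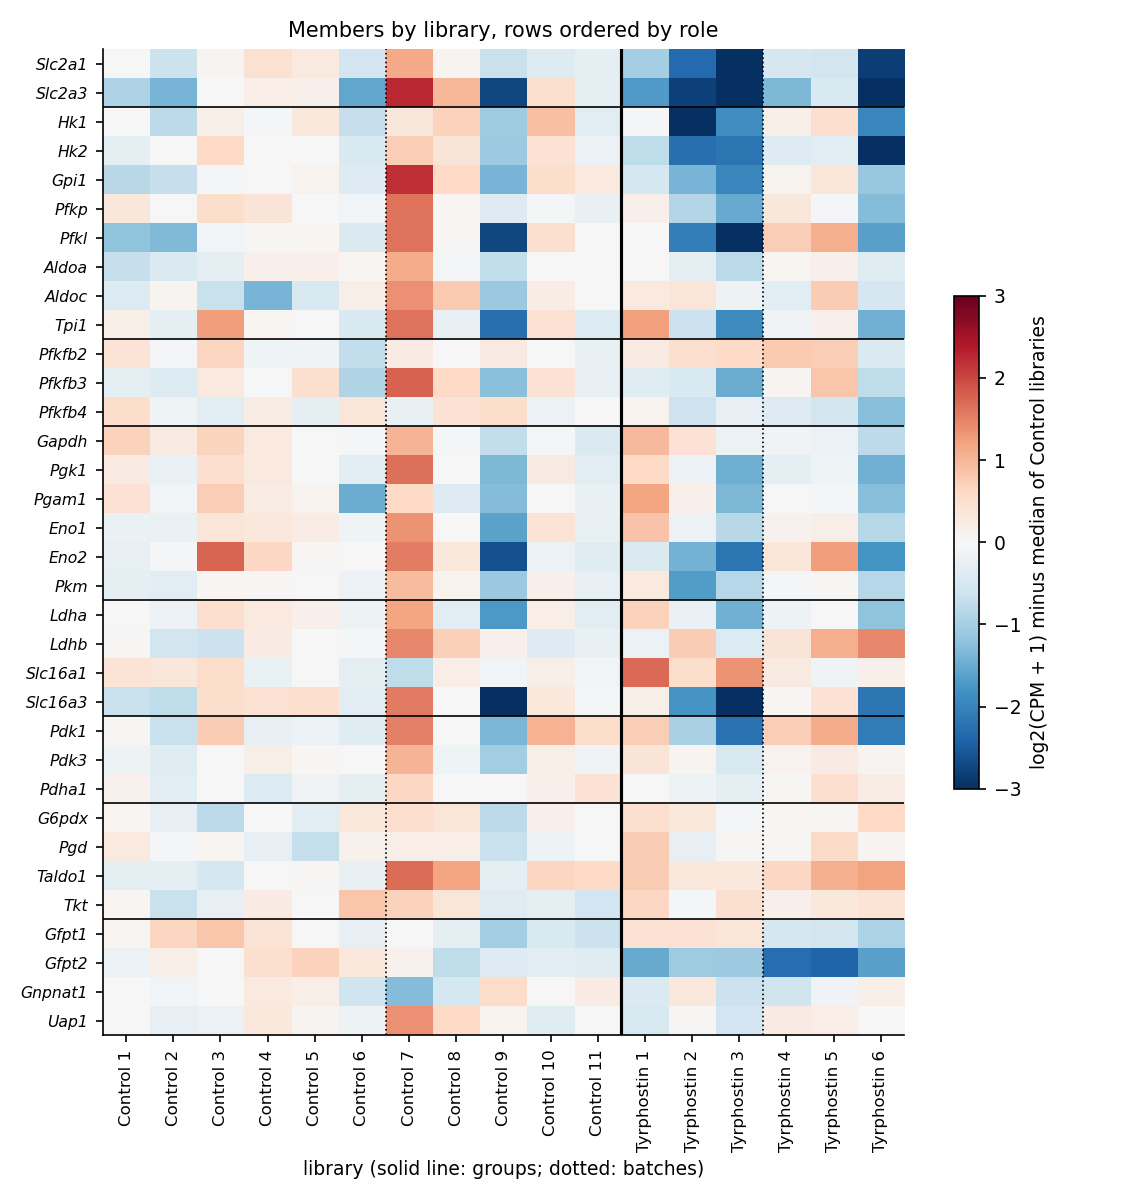
Level of each of the 34 tested genes in each library as log2(CPM + 1) minus the median of the Control libraries (color, log2 units), with rows ordered by role, a solid line between groups and dotted lines between batches. Control 7 is red and Control 9 blue along most rows, Tyrphostin 2, 3 and 6 are blue for the carriers and hexokinases, and the Gfpt2 row is blue in all 6 Tyrphostin libraries.

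**Figure D2:**
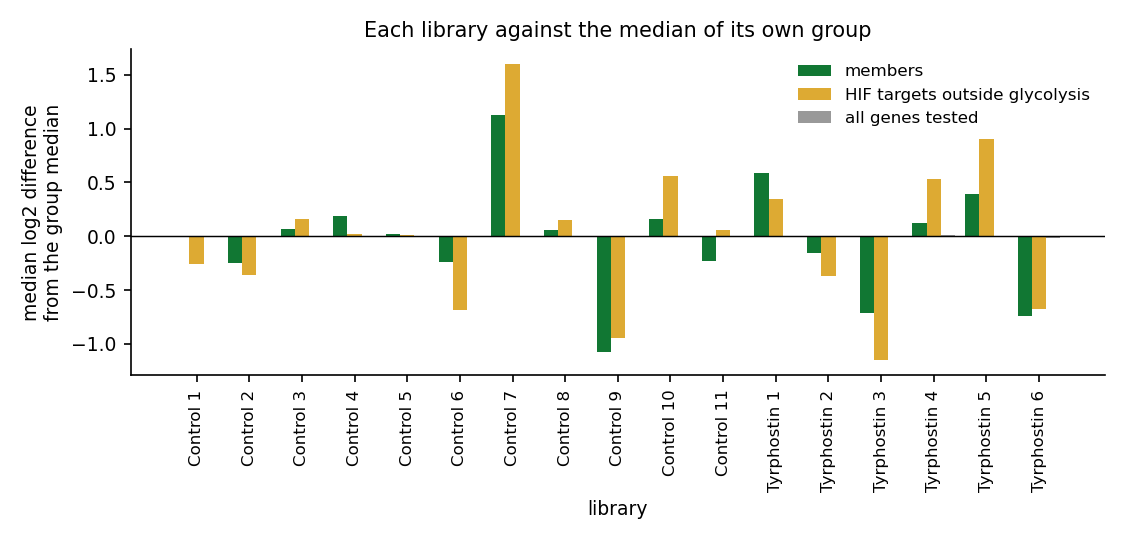
Median distance of each library from the median of its own group (y axis, log2 units) over the 34 tested genes, over the 18 HIF targets outside glycolysis and over all 9603 genes tested. The 2 gene lists lie at 1.13 and 1.60 in Control 7, at -1.08 and -0.94 in Control 9 and at -0.71 and -1.15 in Tyrphostin 3. The bars for all genes stay near 0, as scaling between libraries tends to make them, and are no separate contrast.

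The letters before the starts of these genes were read as a description, and a link between them and the levels in the libraries was not tested. RefSeq promoter windows of the build GRCm38.p6 were matched by symbol for 34 of the 36 genes, and the 250 bases before each start were searched on both strands. The submitters' processing notes name GRCm38 with no patch. The core letters bound by HIF, ACGTG or GCGTG, occurred in at least 1 window of 31 of the 34 genes (91.2%), against 41.5% of 27025 genes of the reference table and 64% of the 7602 tested genes that had a window. Gpi1, Eno2 and Tpi1 were the 3 without a match. These shares count a gene with a match in any of its windows, so more windows per gene give more places to match. The 34 genes had 51 windows and the 27025 genes had 32851, and the windows of the 7602 tested genes were not counted. CACGTG, an E-box that contains ACGTG on both strands, occurred in 6 of 34 (17.6%, against 6.86% of all and 10.6% of tested genes), and the AP-1 letters TGANTCA in 2 of 34, Aldoa and Gfpt2 (5.88%, against 7.82% and 5.26%). The CRE letters TGACGTCA occurred in 1 of 34 (2.94%, against 1.77% and 3.37%) and TGACGNNA, which overlaps them, in 4 (11.8%, against 6.5% and 11.9%). A match is a string of letters and not a measured binding site.

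The stretches below belong to the genes that passed the test between the groups and had a window, and to Slc16a3, the partner of Slc16a1. Each is written 5′ to 3′ on the strand of the gene, with HIF core letters in capitals on either strand and, in Gfpt2, also TGACTCA. The first 3 are the 250 bases before the start: Gfpt2 at chr11:49793905-49794154 (plus strand), Hk2 at chr6:82774455-82774704 (minus strand) and Slc16a1 at chr3:104638414-104638663 (plus strand). For Slc2a1 (chr4:119108695-119108724, plus strand) and Slc16a3 (chr11:120949031-120949060, plus strand) 30 bases around the match nearest to the start are given. These lie before a RefSeq start, but GENCODE M21 starts the 2 genes earlier, at chr4:119108711 and chr11:120948480. By that annotation the Slc2a1 stretch crosses the gene's start and the Slc16a3 stretch lies past it.
Gfpt2: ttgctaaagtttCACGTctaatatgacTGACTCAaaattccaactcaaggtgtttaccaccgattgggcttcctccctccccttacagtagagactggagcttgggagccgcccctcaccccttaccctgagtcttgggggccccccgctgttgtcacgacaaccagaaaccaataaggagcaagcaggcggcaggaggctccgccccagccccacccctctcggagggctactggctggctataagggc
Hk2: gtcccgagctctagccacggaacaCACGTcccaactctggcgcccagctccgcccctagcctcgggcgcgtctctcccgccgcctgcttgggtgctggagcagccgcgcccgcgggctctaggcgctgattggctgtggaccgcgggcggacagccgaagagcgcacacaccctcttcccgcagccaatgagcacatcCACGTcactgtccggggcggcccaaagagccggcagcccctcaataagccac
Slc16a1: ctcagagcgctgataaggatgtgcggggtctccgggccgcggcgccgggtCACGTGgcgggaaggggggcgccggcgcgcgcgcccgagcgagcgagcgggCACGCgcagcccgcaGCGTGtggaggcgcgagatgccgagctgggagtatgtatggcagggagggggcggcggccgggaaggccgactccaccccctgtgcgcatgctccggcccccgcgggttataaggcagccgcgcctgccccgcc
Slc2a1: gagtcccgccccggACGTGctccccaggcc
Slc16a3: gcagcggtgACGTGcgcgggggACGTGccg
In Gfpt2 the single HIF core began 238 bases before the start and the AP-1 letters 223 bases before it. Hk2 held 2 cores, beginning 226 and 52 bases before the start, and Slc16a1 held 4 matches on the 2 strands, of which the pair within CACGTG overlap.

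In the fit that took all 17 libraries and a batch term, 5 of the 34 tested genes passed an adjusted p of 0.05 (14.7%), against 10.6% of all genes tested. Slc2a1, Slc2a3, Hk2 and Gfpt2 were lower in Tyrphostin libraries (4 of 34, against 6.25% of all genes) and Slc16a1 was higher (1 of 34, against 4.35%). The log2 fold change was below 0 for 23 and above 0 for 11 of the 34, with a median of -0.29, against 0.00 over all genes. When libraries were scaled by their total counts instead of by TMM, the median of all genes moved to 0.15 and the split of the 34 to 20 below and 14 above 0. The median of the 34 then lay 0.28 below that of all genes. Without the filter on low counts Gfpt2 and Slc16a1 alone passed, and with the Control libraries summed by set Gfpt2 alone did. Over all genes, 11 alternative fits, these among them, called 619 (without the batch term) to 1313 genes (DESeq2), against 1018 in the main fit. Whether the 34 genes lost a larger part of their calls than all genes did was not tested. For 17 genes that did not pass, leaving out 1 library moved the log2 fold change by over 1.5 times without turning its sign, with Tyrphostin 1 at an end of the range for 12 and Control 7 for 10. Examples are Tpi1 (-0.96 without Tyrphostin 1 and -0.07 without Control 7), Pgk1 (-0.85 and -0.25), Ldha (-0.60 and -0.08) and Slc16a3 (-1.29 and -0.52). Pfkl ran from -0.81 without Tyrphostin 1 to -0.10 without Tyrphostin 3. Without Control 7 and Control 9 together, 5 genes were lower and 1 higher, Gpi1 joining the 5. These libraries were left out because they stood apart for these same genes, so this fit is no separate test. No share of all genes is given beside its counts. Total-count scaling also turned the split of calls over all genes from 418 higher and 600 lower to 715 higher and 396 lower.

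In CPM per kilobase of exon (GENCODE M21 lengths), the most abundant of the 36 in Control libraries were Ldha at 1916 ± 870, Aldoa at 1804 ± 750, Pkm at 721 ± 261 and Slc2a1 at 561 ± 246 (mean ± SD, n = 11). Gapdh followed at 337 ± 121 and Eno1 at 270 ± 131. The scarcest were Pfkm at 0.588 ± 0.36 and Pdk2 at 0.35 ± 0.369 CPM per kilobase, and these were the 2 genes that did not pass the filter on low counts. Neighbours in this order overlapped within their SD, except Aldoa and Pkm. Exons of Gnpnat1 overlap Styx on the opposite strand over 81.9% of their length, and those of Pdha1 and G6pdx overlap Map3k15 and Ikbkg over 16.1% and 13.6%. Smart-Seq2 does not mark strand, so the reads of such pairs cannot be told apart. Gapdh, Pgk1, Ldha, Eno1, Aldoa and Tpi1 have processed copies elsewhere in the genome, and how reads shared with them were counted is not given in the sources used here.

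**Figure D3:**
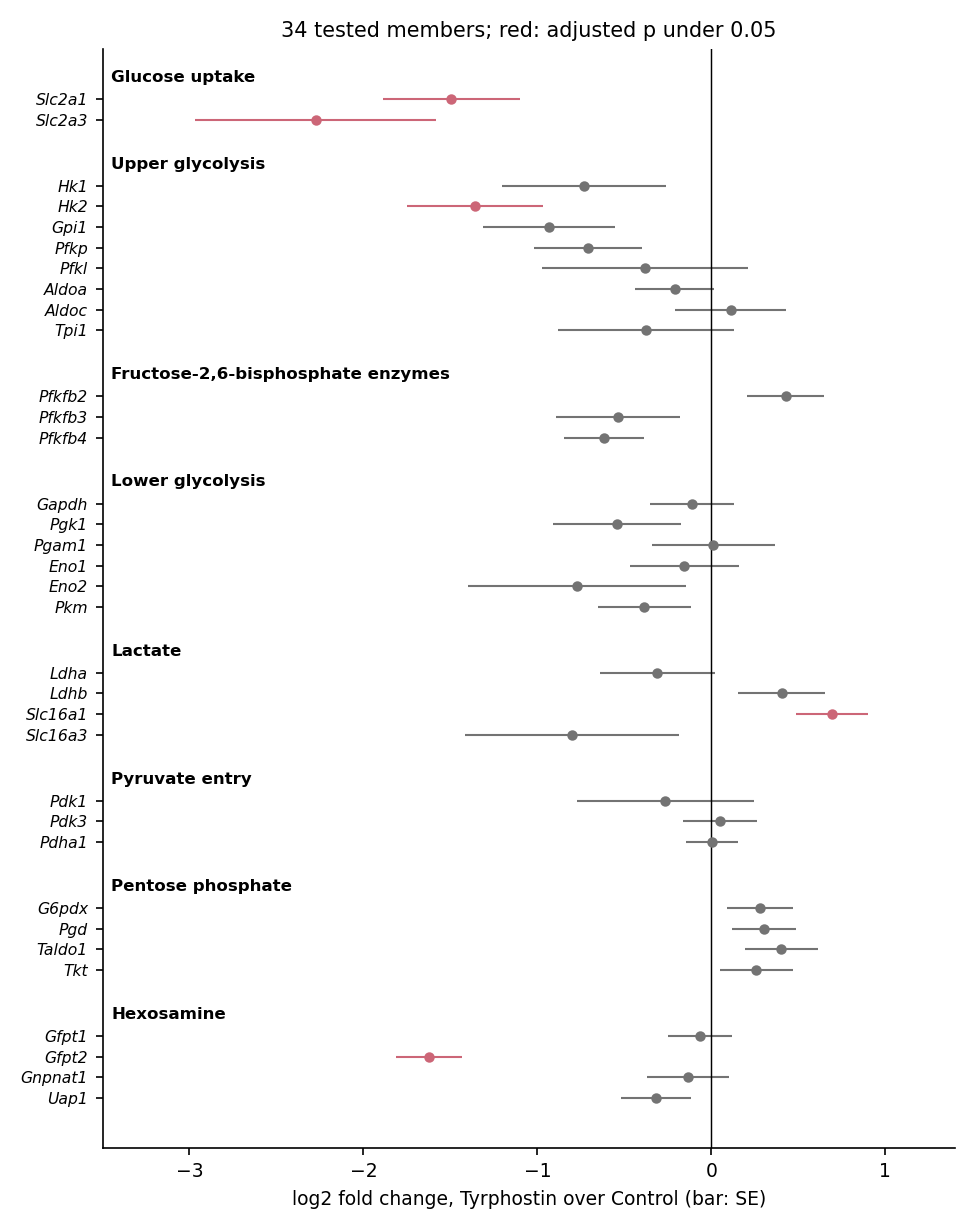
Log2 fold change of Tyrphostin over Control (x axis, edgeR with batch as a term, bars: SE) for the 34 tested genes, grouped by role, with adjusted p under 0.05 in red. Both carriers, Hk2 and Gfpt2 lie left of 0 in red and Slc16a1 right of 0, and the 4 pentose phosphate genes lie right of 0 in gray.

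Both glucose carriers were lower in Tyrphostin libraries. Slc2a1 (chr4:119108711-119137983, GRCm38), which encodes the carrier GLUT1, lay between 1186 and 4156 CPM in Control libraries (median 1894) and between 203 and 1333 CPM in Tyrphostin libraries (median 657). Tyrphostin 2, 3 and 6, at 376, 203 and 265 CPM, and Tyrphostin 1, at 937 CPM, fell below every Control library, whereas Tyrphostin 4 and 5, at 1333 and 1301 CPM, lay among the lowest Controls. The log2 fold change was -1.49 ± 0.39 (SE; edgeR adjusted p = 0.0179), with -1.89 ± 0.42 in batch 1 (adjusted p = 0.0118) and -1.09 ± 0.55 in batch 2 (adjusted p = 0.513). Without Tyrphostin 2 the call was lost (log2 fold change -1.36, adjusted p = 0.0562), and it was also lost with the Control libraries summed by set (-1.35, adjusted p = 0.134).

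Slc2a3 (chr6:122727809-122801640), which encodes the high-affinity carrier GLUT3, ranged from 10.4 to 362 CPM in Control (median 74.4) and from 1.37 to 53.9 CPM in Tyrphostin libraries (median 15.9). The groups overlapped, with 3 of 6 Tyrphostin libraries, again Tyrphostin 2, 3 and 6, below all Controls. Its log2 fold change was -2.27 ± 0.69 (adjusted p = 0.0486), with -2.31 ± 0.69 in batch 1 and -2.22 ± 0.98 in batch 2, neither of which passed alone. This call sat at the threshold: it was lost when any 1 of 13 of the 17 libraries was left out (adjusted p up to 0.101, without Tyrphostin 2) and held without Control 6, Control 9, Control 11 or Tyrphostin 5 (adjusted p down to 0.0176). It was also lost under upper-quartile (0.0503) and total-count scaling (0.0565), without the batch term (0.0894) and with the Control libraries summed by set (0.205).

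In upper glycolysis Hk2 alone of 8 tested genes passed (12.5%, near the 10.6% of all genes tested). Of the 8, 7 had a log2 fold change below 0, and the median of the 8 was -0.55. Hk2 (chr6:82725025-82774454), the inducible hexokinase, lay between 18.2 and 68.2 CPM in Control (median 40.3) and between 3.54 and 32.3 CPM in Tyrphostin libraries (median 15.6). Tyrphostin 2, 3 and 6, at 7.61, 8.00 and 3.54 CPM, were below all Controls, and Tyrphostin 1, 4 and 5, at 23.2, 30.3 and 32.3 CPM, lay within their range. The log2 fold change was -1.36 ± 0.39 (adjusted p = 0.0308), with -1.64 ± 0.35 in batch 1 (adjusted p = 0.00789) and -1.07 ± 0.61 in batch 2 (adjusted p = 0.601). The call was lost without Control 7 (adjusted p = 0.0521), Tyrphostin 2 (0.0823) or Tyrphostin 3 (0.076), and with the Control libraries summed by set (0.226).

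Hk1, the constitutive hexokinase, ranged from 26.5 to 106 CPM in Control and from 3.73 to 81.7 CPM in Tyrphostin libraries, and its log2 fold change of -0.73 ± 0.47 did not pass (adjusted p = 0.383). Gpi1, the isomerase that makes fructose 6-phosphate, lay between 284 and 3408 CPM in Control (median 747) and between 190 and 968 CPM in Tyrphostin libraries (median 428). Its log2 fold change of -0.93 ± 0.38 did not pass (adjusted p = 0.134), and it passed only without Control 9 (-1.05, adjusted p = 0.0337) or without Control 7 and Control 9 together (-0.76, adjusted p = 0.0448) among the settings of this fit that were tried. Both libraries had stood apart for many of the genes described here. For the 2 phosphofructokinase subunits tested, which catalyse the committed step, the values were -0.71 ± 0.31 for Pfkp (adjusted p = 0.165) and -0.38 ± 0.59 for Pfkl (adjusted p = 0.762). Pfkm, the muscle subunit, had at most 35 counts in a library (0 to 4.2 CPM in Control, 0.574 to 4.8 CPM in Tyrphostin) and was not tested in the fit over all libraries.

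Aldoa, the main aldolase, had 3086 to 11192 CPM in Control and 2935 to 5740 CPM in Tyrphostin libraries and a log2 fold change of -0.21 ± 0.23. Aldoc, its scarce paralog, had 0.11 ± 0.32, and Tpi1, the triose-phosphate isomerase, -0.37 ± 0.51. None of these 3 passed, and the SE of Tpi1 was larger than its difference.

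The bifunctional PFKFB enzymes make and remove fructose-2,6-bisphosphate, which activates phosphofructokinase. None of the 3 passed. Pfkfb4 lay between 7.47 and 14.3 CPM in Control (median 9.61) and between 3.36 and 10.3 CPM in Tyrphostin libraries (median 6.67), and 4 of 6 Tyrphostin libraries were below all Controls. Its log2 fold change was -0.62 ± 0.23 (adjusted p = 0.0899), with -0.34 in batch 1 and -0.94 in batch 2. Pfkfb3, a known HIF target, had -0.54 ± 0.36 (adjusted p = 0.392) and Pfkfb2 0.43 ± 0.22 (adjusted p = 0.245).

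In lower glycolysis, from glyceraldehyde 3-phosphate to pyruvate, none of the 6 genes passed and the median log2 fold change was -0.27. Of the 6, 5 were below 0, a count that became 4 under total-count scaling, where Gapdh stood at 0.04. Gapdh, the dehydrogenase often used as a reference gene, ranged from 714 to 2417 CPM in Control (median 1187) and from 684 to 2336 CPM in Tyrphostin libraries (median 1083), with a log2 fold change of -0.11 ± 0.24.

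Pkm, the pyruvate kinase gene, lay between 1655 and 7003 CPM in Control and between 1134 and 4439 CPM in Tyrphostin libraries, with a log2 fold change of -0.39 ± 0.27 (adjusted p = 0.416). Pgk1, the first of the 2 ATP-forming steps, had -0.54 ± 0.37, Eno1 had -0.15 ± 0.31 and Pgam1 had 0.01 ± 0.35. Eno2, the scarce enolase, ranged from 2.17 to 64.9 CPM in Control and from 3.32 to 45.6 CPM in Tyrphostin libraries. With a value of -0.77 ± 0.62 over both batches (adjusted p = 0.508), it had a log2 fold change of -1.81 ± 0.53 in batch 1 and 0.13 ± 0.80 in batch 2, and neither passed (adjusted p = 0.0614 and 0.975).

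Slc16a1 (chr3:104638668-104658462), which encodes the monocarboxylate carrier MCT1 that moves lactate and pyruvate, was the single gene of the 34 that passed the test as higher in Tyrphostin libraries. It lay between 17.8 and 46.0 CPM in Control (median 31.0) and between 28.6 and 103 CPM in Tyrphostin libraries (median 41.7). Tyrphostin 1 and 3, at 103 and 81.0 CPM, were above every Control library, Tyrphostin 2 at 45.5 CPM was just below the highest Control, and the 3 libraries of batch 2, at 28.6 to 37.9 CPM, lay within the Control range. The log2 fold change was 0.69 ± 0.21 (adjusted p = 0.0318), with 1.13 ± 0.26 in batch 1 (adjusted p = 0.0116) and 0.19 ± 0.26 in batch 2 (adjusted p = 0.881). The difference between the batches, -0.93 ± 0.38, had an unadjusted p of 0.0232 in edgeR's interaction test, the only one of the 34 under 0.05, and did not pass the adjustment (adjusted p = 1). The call was lost without Tyrphostin 1 (0.49, adjusted p = 0.143), Tyrphostin 3 (adjusted p = 0.0843), Control 4 (0.0594) or Control 5 (0.0587), without the batch term (0.76, adjusted p = 0.0682), and with the Control libraries summed by set (0.58, adjusted p = 0.18).

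Slc16a3, which encodes MCT4, the carrier of lactate-exporting cells, spread more widely than most genes. It ranged from 96.4 to 2819 CPM in Control (median 951) and from 63.4 to 1283 CPM in Tyrphostin libraries (median 629), with Tyrphostin 2, 3 and 6 at 277, 63.4 and 211 CPM. The log2 fold change of -0.80 ± 0.62 did not pass (adjusted p = 0.477). Ldha, which makes lactate from pyruvate, lay between 1794 and 13333 CPM in Control (median 5888) and between 2169 and 9573 CPM in Tyrphostin libraries (median 5225), and its log2 fold change was -0.31 ± 0.33. Ldhb, the subunit of the heart isozyme, had 0.40 ± 0.25 (adjusted p = 0.356).

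At the entry of pyruvate into mitochondria no gene passed. Pdha1, the catalytic subunit of pyruvate dehydrogenase, had a log2 fold change of 0.01 ± 0.15, and its residual SD of 0.23 was the smallest of the 34. The kinases that switch that enzyme off had -0.26 ± 0.51 (Pdk1) and 0.05 ± 0.21 (Pdk3), and Pdk2, with at most 16 counts in a library, was not tested.

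The 4 pentose phosphate genes all had a log2 fold change above 0, in the fit over both batches and in each batch, and under TMM, RLE, upper-quartile and total-count scaling, and none passed. The values were 0.28 ± 0.19 for G6pdx, the rate-limiting dehydrogenase, 0.30 ± 0.18 for Pgd, 0.40 ± 0.21 for Taldo1 and 0.26 ± 0.21 for Tkt (adjusted p = 0.255 to 0.506). Taldo1, the transaldolase, lay between 22.7 and 106 CPM in Control (median 32.5) and between 40.6 and 76.7 CPM in Tyrphostin libraries (median 53.2). It differed between the batches among Control libraries, as given below, and passed the test between treatments when Control 7, its highest library, was left out (adjusted p = 0.0402).

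The hexosamine pathway held the gene with the lowest p of the 34, Gfpt2. Gfpt2 (chr11:49794178-49838613) encodes an isozyme of glutamine-fructose-6-phosphate transaminase, the enzyme that commits fructose 6-phosphate to this pathway. It lay between 395 and 1094 CPM in Control libraries (median 672; 692 ± 209, mean ± SD, n = 11) and between 126 and 319 CPM in Tyrphostin libraries (median 226; 224 ± 82.9, n = 6). All 6 Tyrphostin libraries were below all 11 Control libraries. No other gene of the 34 showed such a gap, and 1% of all genes tested did in that direction. The log2 fold change was -1.62 ± 0.19 (edgeR adjusted p = 6.02e-06), with -1.49 ± 0.26 in batch 1 (adjusted p = 0.00155) and -1.75 ± 0.30 in batch 2 (adjusted p = 0.0256). The call held under every setting of the fit over both batches that was tried. Among these settings, the replicate block took the difference between groups from batch 1 alone. The call within batch 2 was lost when any of 6 of its 8 libraries was left out. The libraries that were lowest for the carriers and Hk2 were not the lowest here: Tyrphostin 2, 3 and 6 had 319, 313 and 216 CPM of Gfpt2, and Tyrphostin 1, 4 and 5 had 236, 136 and 126 CPM.

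The other 3 hexosamine genes had log2 fold changes closer to 0, and none passed. Gfpt1, the widely expressed isozyme of the same step, ranged from 10.9 to 42.1 CPM in Control (median 23.1) and from 11.6 to 32.0 CPM in Tyrphostin libraries (median 23.0), with a log2 fold change of -0.07 ± 0.18 (adjusted p = 0.881). Gnpnat1, the acetyltransferase of a later step, had -0.13 ± 0.24, and Uap1, which forms UDP-N-acetylglucosamine, had -0.32 ± 0.20 (adjusted p = 0.369). Under total-count scaling Gfpt1 stood at 0.09 and Gnpnat1 at 0.01, so the 4 genes were below 0 together under the other 3 scalings and 2 of 4 under this one.

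**Figure D4:**
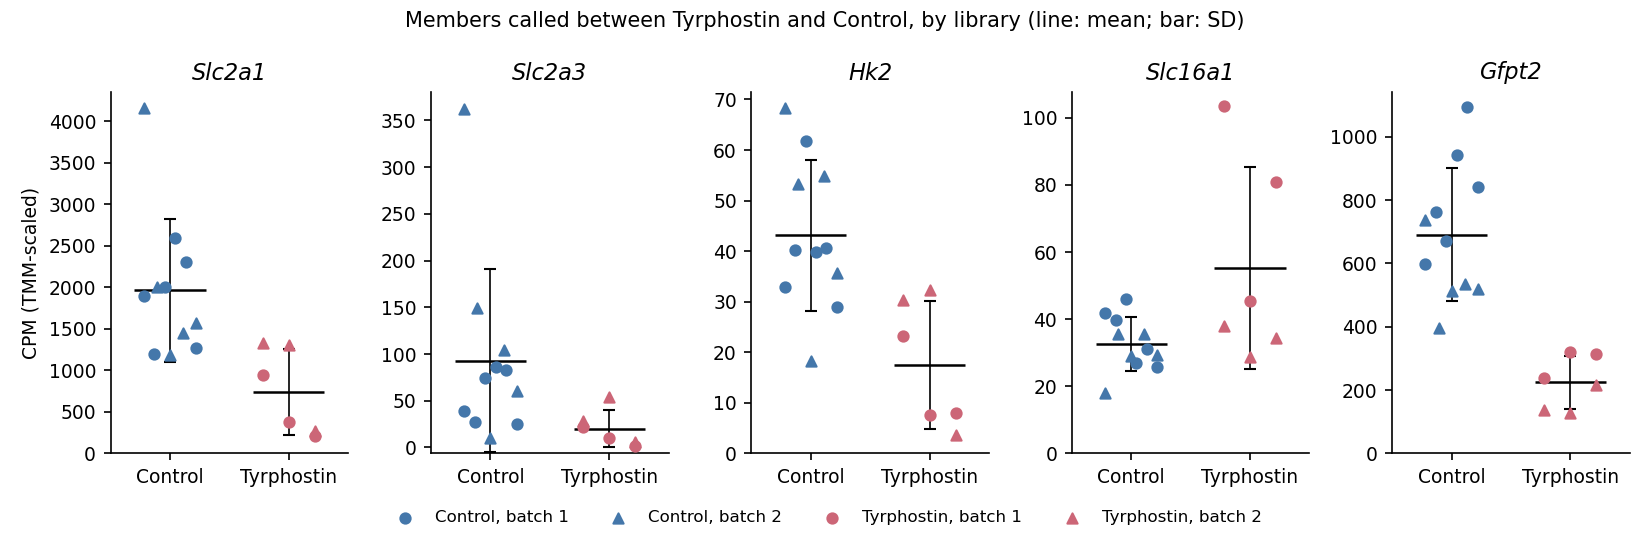
CPM (y axis, TMM-scaled, a separate scale for each panel) of the 5 genes with adjusted p under 0.05 in each of the 11 Control and 6 Tyrphostin libraries, circles for batch 1 and triangles for batch 2, with the mean (line) and SD (bar) of each group. For Gfpt2 the 6 Tyrphostin libraries lie at 126 to 319 CPM, below all Controls, while the groups overlap in the other 4 panels.

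Ratios between 2 genes of one library do not depend on the scaling between libraries, so 10 pairs of isozymes or carriers were compared as log2 ratios of counts (pseudocount 0.5) with a two-sided exact permutation test that ran through the 4704 ways of placing the labels inside the batches. The ratio of Gfpt2 to Gfpt1 was 4.91 ± 0.52 in Control (range 3.99 to 5.55) and 3.32 ± 0.48 in Tyrphostin libraries (range 2.88 to 4.21; SD), and 5 of 6 Tyrphostin libraries were below all Controls. The difference was -1.60, with -1.62 in batch 1 and -1.58 in batch 2 (exact permutation p = 0.000213, the smallest these arrangements can give; adjusted over the 10 pairs p = 0.00213). It was the single pair that passed.

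The ratio of Slc16a3 to Slc16a1 had the largest difference of the 10, -1.68, made of -2.86 in batch 1 and -0.49 in batch 2, and did not pass (exact permutation p = 0.0585, adjusted p = 0.263). Ldha to Ldhb differed by -0.76 (-1.07 to -0.45 when 1 library was left out, exact permutation p = 0.0974) and Hk2 to Hk1 by -0.47 (-0.02 in batch 1 and -0.92 in batch 2, exact permutation p = 0.158). Leaving out Control 9 brought Slc16a3 to Slc16a1 (-2.06, adjusted p = 0.0272) and Slc2a1 to Slc2a3 (1.00, adjusted p = 0.0329, against 0.71 with all libraries) past the threshold, and leaving out Tyrphostin 2 did so for Hk2 to Hk1 (-0.81, adjusted p = 0.00957), all by the exact permutation test. With the Control libraries summed by set, Gfpt2 to Gfpt1 kept its difference (-1.62). The 200 arrangements of that setting allow no exact permutation p under 0.005, which is 0.05 after adjustment for a lone pair and was the value reached, so a lone pair could not pass there.

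**Figure D5:**
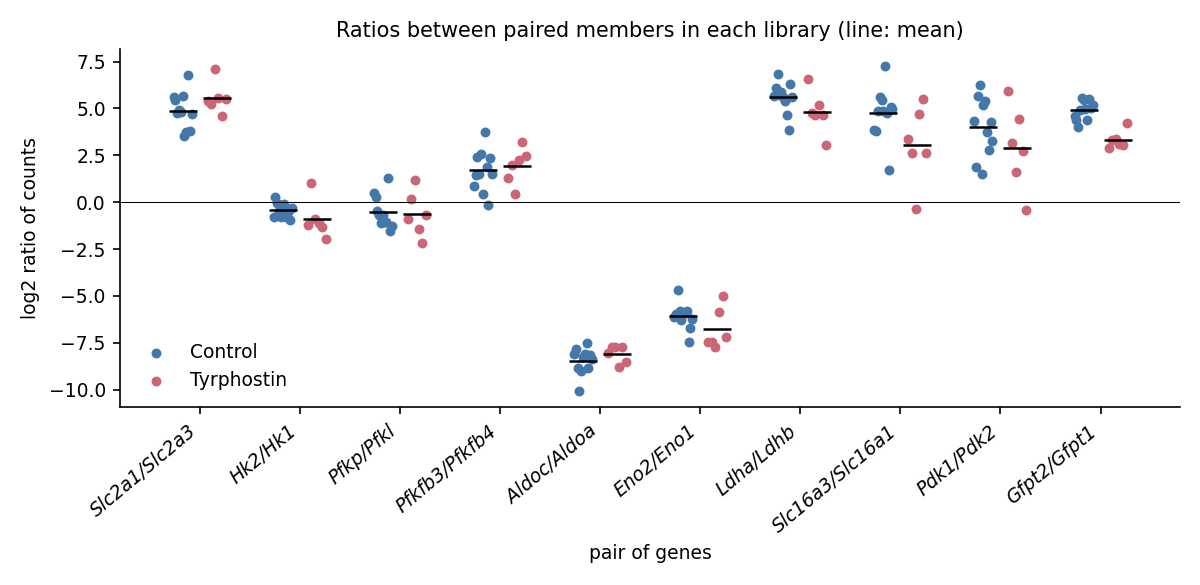
Log2 ratio of counts (y axis) for 10 pairs of genes in each library, Control in blue and Tyrphostin in red, with a line at the mean of each group. The Gfpt2/Gfpt1 points of Tyrphostin libraries lie at 2.88 to 4.21, mostly below the Control range of 3.99 to 5.55, and the other pairs overlap.

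The batches differed in how many genes passed. Within batch 1, Slc2a1, Hk2 and Gfpt2 were lower and Slc16a1 higher (4 of 34 tested, against 6.73% of all genes; 3 lower, against 3.79%), and within batch 2 Gfpt2 was lower (1 of 35, against 0.621%). Leaving out Tyrphostin 1 raised the count in batch 1 to 11 (Slc2a1, Slc2a3, Hk1, Hk2, Gpi1, Pfkp, Pfkl, Eno2, Pkm, Slc16a3 and Gfpt2) and leaving out Tyrphostin 2 cut it to 2, Slc16a1 and Gfpt2. How many of all genes passed under these omissions was not counted, so these counts have no share of all genes to be read against. The test of the difference between batches called none of the 34 genes, against 0% of all genes tested (edgeR; 1 of 34 at an unadjusted p under 0.05; DESeq2 also called 0). Among Control libraries alone, Taldo1 was higher in batch 2 (log2 difference 1.15 ± 0.26, edgeR adjusted p = 0.00928) and Gfpt1 lower (-0.78 ± 0.24, adjusted p = 0.0422). These were 2 of 33 genes tested, against 14% of all genes in that comparison, of which 7.26% were higher and 6.77% lower.

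Other genes of these pathways were read from a list of 83 that holds no member of the 36. Of 55 tested, 9 passed (16.4%, against 10.6% of all genes), 3 higher (against 4.35%) and 6 lower (against 6.25%), with a median log2 fold change of 0.09. Has1 and Has2, genes for hyaluronan synthases, which use the product of the hexosamine pathway, passed as lower. Has3, the other synthase gene on the list, did not pass. Has2, the main synthase of the cumulus, lay between 81.2 and 287 CPM in Control and between 17.1 and 63.2 CPM in Tyrphostin libraries, with no overlap (log2 fold change -2.31 ± 0.30). Has1 lay between 21.1 and 141 CPM and between 6.46 and 17.5 CPM, also with no overlap (-2.42 ± 0.31).

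Pgm2, a phosphoglucomutase, lay between 29.6 and 60.1 CPM in Control and between 12.7 and 19.1 CPM in Tyrphostin libraries, again without overlap, and its log2 fold change of -1.35 ± 0.16 passed in both batches (adjusted p = 0.0027 and 0.0226). Ugdh, which makes the other hyaluronan precursor, UDP-glucuronate, had -0.75 ± 0.24 (adjusted p = 0.0473) and was lost when any 1 of 9 libraries was left out, holding without Control 1, 2, 6, 8, 9 or 10 or Tyrphostin 2 or 4 (adjusted p from 0.02 to 0.124). Gnpda1, a deaminase that runs the first hexosamine step backwards, was higher, with 0.91 ± 0.21, and 5 of 6 Tyrphostin libraries lay above all Controls. Gnpda1 passed in neither batch alone (edgeR adjusted p = 0.281 and 0.0726), and its call was lost with the replicate block (0.59, adjusted p = 0.442). Pdp2, a phosphatase that switches pyruvate dehydrogenase on, was also higher, with 0.85 ± 0.22, a call lost without the batch term (adjusted p = 0.252) and with the Control libraries summed by set (0.0557).

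Of the regulators on the list, Hif1a, the oxygen-regulated HIF subunit, lay between 711 and 2010 CPM in Control and between 421 and 679 CPM in Tyrphostin libraries without overlap (-0.98 ± 0.17, edgeR adjusted p = 0.000563). None of the 8 regulators tested passed within batch 2 alone, against 0.621% of all genes (edgeR). Myc, which activates many glycolytic genes, had -1.32 ± 0.28 in the fit over both batches (adjusted p = 0.00323). Mycn, its paralog, had 0.97 ± 0.30 (adjusted p = 0.0402), with 1.75 in batch 1 and 0.03 in batch 2, and its call was lost when any 1 of 10 libraries was left out, holding without Control 1, 7, 8, 10 or 11 or Tyrphostin 4 or 5 (adjusted p from 0.0109 to 0.111 over the 17 omissions). The 16 enzymes of the TCA cycle, which burns the pyruvate that glycolysis makes, had a log2 fold change above 0 in 15 cases, under all 4 scalings, with a median of 0.27, and none passed in edgeR after TMM scaling (3 at an unadjusted p under 0.05). Under upper-quartile scaling 1 of the 16 passed and under total-count scaling 3 did. Within batch 1, 15 of the 16 were above 0 (median 0.22), and within batch 2, 12 were above and 4 below 0 (median 0.10).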

How the data were processed

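RNA was purified on SPRI beads and amplified by Smart-Seq2 without molecular identifiers, per the labels' protocols. Raw integer counts, keyed by gene symbol, were deposited as a single table (25198 rows, of which 3576 were 0 throughout), and STAR, HTSeq and GRCm38 are named in the submitters' processing notes. Versions, annotation and the strand setting of the counting are not given in the sources used here. All 17 columns were matched to samples by name. Each of 31 pairs of replicate libraries within a batch exceeded sampling noise (ratio of chi-square to its degrees of freedom, 11.8 to 84.1).

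These deposited counts entered quasi-likelihood tests of edgeR (4.0.16, under R 4.3.3; genes kept by filterByExpr, TMM, robust fit, Benjamini-Hochberg over all genes tested, threshold 0.05), with batch as a term, within each batch, for the interaction, and between batches among Control libraries. SE is the size of the log2 fold change divided by the square root of F. CPM use TMM-scaled library sizes, and log2 CPM a prior count of 2. A floor of 3 counts is 0.336 CPM in the deepest library and 1.64 CPM in the shallowest, counting error only. All 36 genes were to be named, with the related genes that passed. The genes, lists and tests were chosen with earlier results of these data known. Ratios of counts used exact permutation. Code was tested on simulated data. Alternatives were other scalings, DESeq2 1.42.0, limma-voom (limma 3.58.1), other filters, no batch term, Control libraries summed by set, a replicate block and omission of each library. The omission of Control 7 with Control 9 and the fits on the libraries of the block without it were added after seeing the data.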

Additional observations from a re-analysis of the deposited data

Results flagged for a closer look

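Within groups of 4 to 10 libraries, 4 of 102 searched held a library far from the rest, and chance alone would give about 5.1 at 1 in 20. Pfkp, the platelet phosphofructokinase, stood at 678 CPM in Control 7, against 165 to 225 CPM in the other Control libraries of batch 2. Tpi1, the triose-phosphate isomerase, stood at 1187 CPM in Control 3, against 362 to 562 CPM in the other Control libraries of batch 1. Pgam1, the phosphoglycerate mutase, stood at 20.3 CPM in Control 6, the library with the fewest counts, against 55.2 to 98.0 CPM in the other Control libraries of batch 1. Pdk3, a kinase of pyruvate dehydrogenase, stood at 15.4 CPM in Tyrphostin 3, against 23.2 to 29.0 CPM in the other Tyrphostin libraries.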

How the results depend on the processing

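Gfpt2 was lower at an adjusted p under 0.05 in each of the fits over both batches that was tried. The fits on the 12 libraries of the replicate block are among them, but took the difference between groups from batch 1 alone. The count over all genes, 1018, became 619 (without the batch term) to 1313 (DESeq2) over 11 alternative fits. Those without the filter and with summed sets are among the 11. It became 708 to 1314 when 1 library was left out. Of the 34 genes, the 4 called lower became 1 without the filter and 1 with Control libraries summed by set (both Gfpt2), and 1 to 5 when 1 library was left out. The 1 called higher became 0 without the batch term and 0 with summed sets, and 0 to 2 when 1 library was left out. In batch 1 the 4 calls became 7 with DESeq2 and 2 to 11 when 1 library was left out. In batch 2 the 1 call became 0 to 1 when 1 library was left out. Calls over all genes were not counted for these alternatives within a batch. The interaction, with 0 calls, gave 1 without the filter (Eno2), and the 2 differences between Control batches became 4 without the filter and 4 with DESeq2. The cause was not tested.

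Among log2 fold changes near 0 the sign turned for Pdha1 with RLE scaling (-0.000755) and DESeq2 (-0.00249), for Gapdh, Gfpt1 and Gnpnat1 with total-count scaling (0.043, 0.088 and 0.0081), for Pgam1 with limma-voom (-0.12) and for Gapdh without Control 7 and Control 9 (0.022). When 1 library was left out, the sign also turned for Aldoc (-0.0097 to 0.28), Gapdh (-0.30 to 0.068), Pgam1 (-0.35 to 0.20), Eno1 (-0.45 to 0.064), Pdk3 (-0.054 to 0.21), Pdha1 (-0.041 to 0.060) and Gfpt1 (-0.11 to 0.0105). Ratios moved likewise: Pfkp to Pfkl (-0.37 to 0.14), Pfkfb3 to Pfkfb4 (-0.031 to 0.46), Slc2a1 to Slc2a3 (0.42 to 1.00), Hk2 to Hk1 (-0.81 to -0.25) and Slc16a3 to Slc16a1 (-2.06 to -1.12). With summed sets Gfpt2 to Gfpt1 stood at -1.62 (adjusted exact permutation p = 0.05, the smallest that setting allows a lone pair).

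Control and Tyrphostin libraries share replicate numbers, but numbers 4 to 6 join different batches. Correlations of deviations from the group means were 0.47, 0.31 and 0.38 for numbers 1 to 3, each Tyrphostin library correlating best with its own number, and 0.013, -0.13 and -0.063 for numbers 4 to 6, none of which did. These deviations include the batch difference. From the means within batch 1 the values for numbers 1 to 3 were 0.32, 0.08 and 0.05. Not every pair exceeded 0.1, so the numbers were not taken to pair the samples. With the replicate block on 12 libraries, 624 genes were called over all, 2 of the 34 lower (Slc2a1 and Gfpt2) and 1 higher (Taldo1), while the same 12 libraries with no replicate block gave 601, 1 and 1. Batch 2 has no Control library among these 12, so both fits took the difference between groups from batch 1 alone. With the block it came from numbers 1 to 3 only. In batch 1 the replicate block on 6 libraries called 848 genes and 5 of the 34, against 389 and 2 on the same 6 libraries without it. The block turned the sign of Aldoa (0.095), Pgam1 (-0.32) and Pdha1 (-0.093), and the same 12 libraries without it that of Gapdh (0.15), Eno1 (0.041) and Gfpt1 (0.077).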
